A study of Mus musculus with 2 samples.

Results

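The gene group described here is the set of liver-enriched transcription factors of the FOXA, ONECUT and C/EBP families. It was chosen by name, with 8 members: Foxa1, Foxa2, Foxa3, Onecut1, Onecut2, Cebpa, Cebpb and Cebpd. All probe sets that the platform annotation pairs with only 1 of these symbols were taken, which gave 13 of 45101 probe sets and 8 of 18193 named genes. The question of the study was how the liver transcriptome differs after the kidneys have been injured. Both groups were female wild-type C57BL/6 mice, 8 weeks old, killed 24 h after surgery. The sham group had an operation without ischemia, and the AKI (acute kidney injury) group had 30 min of warm ischemia of both kidneys followed by reperfusion. In each group frozen liver of 3 mice was combined into 1 pool, and each pool was hybridised to 1 Affymetrix mouse array. With 1 array per group the spread between mice is not known, no test between the groups can be made, and "higher" and "lower" describe these 2 pools.

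The 3 families are parts of the network that sets and keeps the identity of hepatocytes. FOXA proteins, also called HNF3 alpha, beta and gamma, are forkhead factors that bind compacted chromatin and open it for other regulators, and they help to control bile acid, glucose and lipid genes. ONECUT1, or HNF6, and its relative ONECUT2 bind DNA through a cut domain and a homeodomain, and both act in the development of hepatocytes and bile ducts. C/EBP proteins bind DNA as leucine zipper dimers. C/EBP alpha maintains metabolic genes of the resting liver, whereas C/EBP beta and C/EBP delta are known as the family members that inflammatory cytokines induce in the acute phase response.

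The arrays had been scaled by the authors to a common mean. Values are linear signals of probe sets, and each difference is the AKI value less the sham value after log2(signal + 71.8). The added 71.8 is the table's 25th percentile. This scale makes the differences of weak signals smaller than their ratios. Each gene is represented by its brightest probe set. The only repeat measurement on these arrays is a further probe set of the same gene. In the 5149 genes that had 2 or more such probe sets above the level filter, the SD of the difference within genes was 0.70, and in the 3 of 4 level classes that hold the factors it was 0.74, 0.69 and 0.66. This SD covers measurement error and differences between transcripts, not mice. Probe sets differ in how brightly they respond, so signals of different genes are not read as more or less mRNA. A probe set's rank among all probe sets of an array is given only to show where its signal lies. The level filter asks for a signal at or above the median of all probe sets that are not controls, 225.7 on the sham array or 231.8 on the AKI array. The brightest probe sets of all 8 factors lay above it on both arrays, so that none of these passed only through the group in which it was high.

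Of the 8 factors, 6 were lower and 2 were higher in the AKI pool. Onecut1, Onecut2 and Foxa3 were at least 2-fold lower, Cebpd was at least 2-fold higher, and the remaining 4 stayed within 2-fold on this scale. Among all 13128 genes that passed the level filter the share at least 2-fold lower was 12.4% and the share at least 2-fold higher 10.4%, beside 37.5% (3) and 12.5% (1) of the 8 factors. The share of higher factors was thus near that of all genes, and the share of lower ones was above it, as a description of 8 genes in 2 pools. The median difference of the 8 factors was -0.96, and that of all genes was -0.02. In order, the differences were -2.10 for Onecut2, -2.09 for Onecut1, -1.88 for Foxa3, -0.99 for Foxa2, -0.93 for Cebpa, -0.37 for Foxa1, 0.84 for Cebpb and 2.33 for Cebpd. Only the steps from Foxa1 to Cebpb (1.21) and from Cebpb to Cebpd (1.49) exceeded the combined SD of their neighbouring genes, 0.99 and 0.93. All other neighbours in this order were closer than that. Of the 13 probe sets 9 were lower and 4 higher. Since the brightest probe set stands for its gene, only 4 genes had a further probe set that could differ in direction. In these 4 genes all further probe sets went the same way as the brightest.

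**Figure D1:**
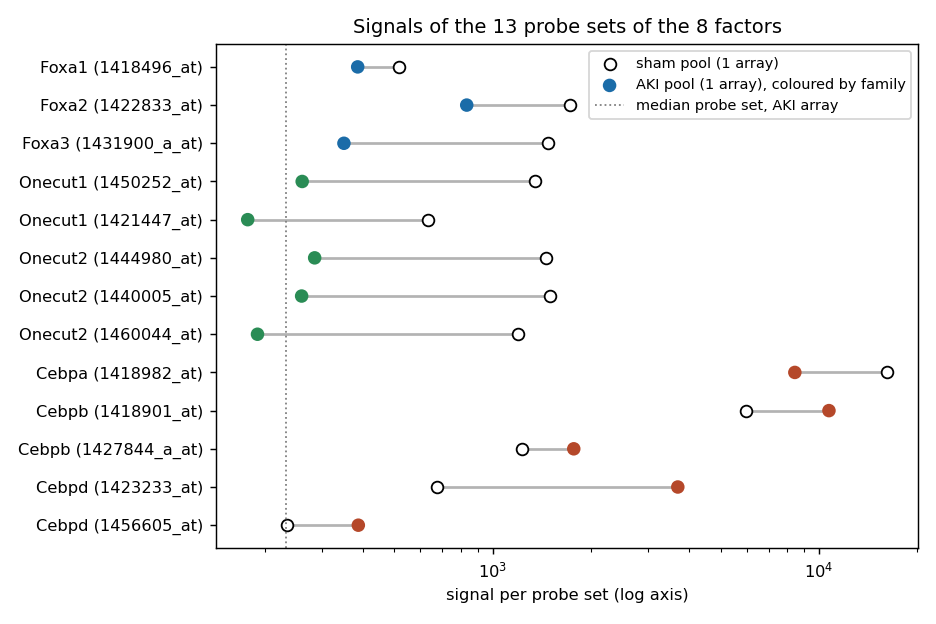
Signal of each probe set (log axis) on the sham array (open circles) and on the AKI array (filled circles, coloured by family), joined by a line, with the median of the AKI array's non-control probe sets (231.8) as a dotted line. The filled circles lie to the left of the open ones for all 3 FOXA probe sets, all 5 ONECUT probe sets and Cebpa, and to the right for the 4 probe sets of Cebpb and Cebpd.

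The ONECUT genes had the most negative differences of the group. For Onecut1, the gene of HNF6, the probe set 1450252_at gave 1348.7 in sham and 260.7 in AKI, a ratio of sham over AKI of 5.17. The probe set 1421447_at of the same gene gave 634.5 and 177.5, a ratio of 3.57. Both probe sets were thus lower in the AKI pool, and their log2 differences of -2.09 and -1.50 lie closer together than the SD of 0.69 within genes of this level.

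Onecut2 was measured by 3 probe sets. The probe set 1444980_at gave 1454.2 in sham and 284.7 in AKI. The other two gave 1494.9 and 259.7 (1440005_at) and 1192.9 and 190.2 (1460044_at). All 3 were lower in the AKI pool, by log2 differences between -2.27 and -2.10, a span of 0.17, and the ratios of sham over AKI ran from 5.11 to 6.27. In the sham pool these signals exceeded those of 88.3% to 90.7% of all non-control probe sets, and in the AKI pool those of 44.8% to 55.9%. Onecut1 moved in the same way, from above 89.7% to above 53.4% of probe sets for its brighter probe set. The weaker probe set of Onecut1 and the weakest of Onecut2 passed the level filter on the sham array only, so their AKI signals lie below the array's median. Of the 13128 genes, 259 had a more negative difference than Onecut2 and 260 a more negative one than Onecut1.

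The RefSeq promoter table (GRCm38.p6) was searched for short motifs of regulators with a known part in liver or inflammation, in windows of 300 bases that begin 250 bases before a start of transcription. The array values name no genome build. The window of Onecut1, chr9:74861671-74861970 on the plus strand, is shown, and capitals mark every motif match. Of the 6 factors whose windows are described here, Onecut1 had the most negative difference. Onecut2 and Cebpd are not among these 6.
Onecut1: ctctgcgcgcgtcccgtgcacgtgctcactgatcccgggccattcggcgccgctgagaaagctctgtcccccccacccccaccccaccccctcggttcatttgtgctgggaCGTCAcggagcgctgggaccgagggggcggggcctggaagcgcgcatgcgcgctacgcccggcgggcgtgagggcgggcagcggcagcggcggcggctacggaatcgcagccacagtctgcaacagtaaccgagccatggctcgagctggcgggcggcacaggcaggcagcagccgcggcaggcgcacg
Its only match, printed as CGTCA on the strand shown, is the core TGACG of the cAMP response element on the opposite strand, with its first printed base at -139 from the start. Of all 32851 windows in the table, 20.8% hold this core on either strand. A match describes letters only and is no evidence of a bound site.

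Among the FOXA genes the size of the difference was uneven. Foxa3, which encodes HNF3 gamma, had signals of 1478.0 in sham and 350.0 in AKI, a ratio of sham over AKI of 4.22 and a log2 difference of -1.88. It went from above 90.6% to above 61.8% of probe sets, and 401 of the 13128 genes had a more negative difference. Its only probe set, 1431900_a_at, has a suffix that marks probe sets shared by several transcripts of a gene. Foxa2, which encodes HNF3 beta, had signals of 1719.5 and 832.4, a ratio of 2.07. Its log2 difference of -0.99 lay just inside the 2-fold threshold on the scale with the pseudocount, although the plain ratio of signals passed it. Of all genes, 12.7% had a more negative difference than Foxa2. Foxa1, which encodes HNF3 alpha, had signals of 517.7 and 385.7, a ratio of 1.34. Its difference of -0.37 was smaller in size than the SD of 0.74 within genes of its level. It thus lies within the spread seen between probe sets of the same gene, and 32.2% of all genes were more negative. The difference of Foxa3 minus that of Foxa1 was -1.51, a value that no constant shift of a whole array can move. Each FOXA gene has only 1 probe set here.

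The windows of Foxa2 and Foxa3 are printed with the same marking, since these FOXA genes had the larger differences. The window of Foxa2 is chr2:148046920-148047219 and that of Foxa3 chr7:19023490-19023789, both on the minus strand.
Foxa2: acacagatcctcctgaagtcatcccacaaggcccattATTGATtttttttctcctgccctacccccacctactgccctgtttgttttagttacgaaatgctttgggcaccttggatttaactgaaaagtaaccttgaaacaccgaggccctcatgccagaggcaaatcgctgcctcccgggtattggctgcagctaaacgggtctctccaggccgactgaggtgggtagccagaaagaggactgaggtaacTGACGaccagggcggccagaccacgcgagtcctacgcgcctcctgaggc
Foxa3: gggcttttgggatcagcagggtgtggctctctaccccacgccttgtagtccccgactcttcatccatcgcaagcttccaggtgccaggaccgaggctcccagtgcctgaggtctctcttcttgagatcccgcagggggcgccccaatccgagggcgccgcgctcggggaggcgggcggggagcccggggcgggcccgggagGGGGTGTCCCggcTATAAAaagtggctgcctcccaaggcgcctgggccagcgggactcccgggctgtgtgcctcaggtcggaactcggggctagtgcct
The Foxa2 window, the most upstream of 3 in the table for this gene, holds the letters ATTGAT, the core of HNF6 sites, at -213. Of all windows 7.54% hold it on either strand. It also has TGACG at 1 base after the start. The Foxa3 window holds the TATA box letters TATAAA at -36, as do 13.6% of all windows, and GGGGTGTCCC at -49, which on the opposite strand fits the NF-kB pattern (GGGA and CC with 4 free bases between), found in 20.7% of all windows. No window of Foxa2 or Foxa3 in the table holds the forkhead letters TGTTTAC or TATTTAC (the latter in 3.04% of all windows), whereas the Foxa1 window holds TGTTTAC on the opposite strand at -141, as 3.65% of all windows do on either strand.

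**Figure D2:**
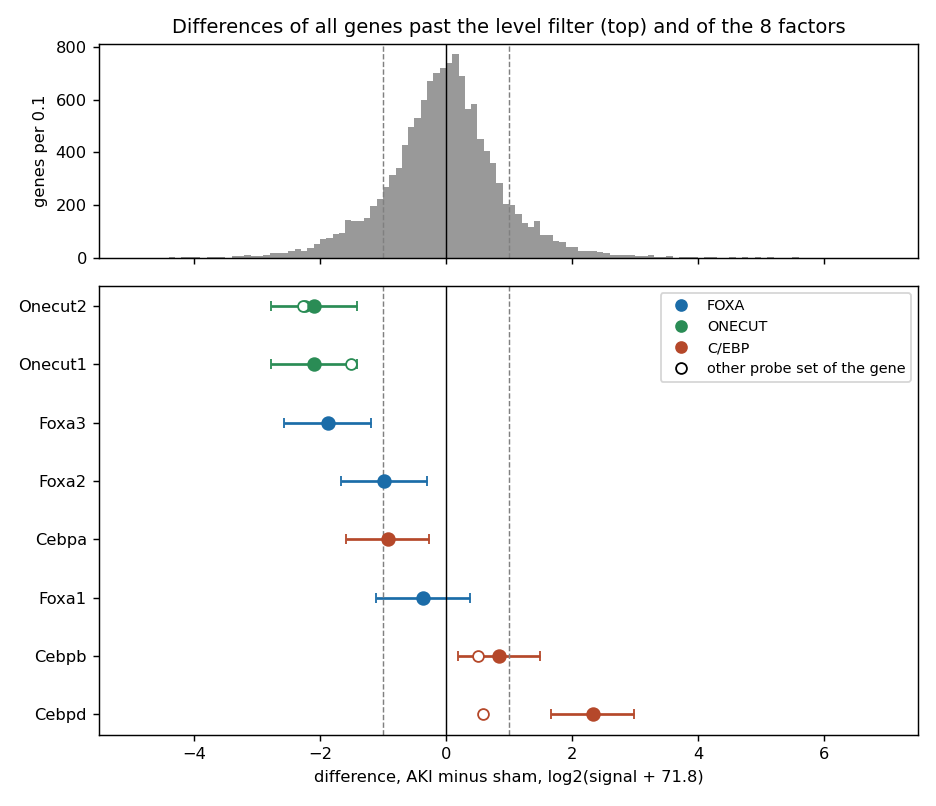
Top: histogram of the log2 difference, AKI minus sham, of the 13128 genes past the level filter, in steps of 0.1. Bottom: the 8 factors on the same axis, with filled circles for the brightest probe set, bars for the SD within genes of its level class, open circles for other probe sets and dashed lines at 2-fold. Onecut2, Onecut1 and Foxa3 lie beyond the 2-fold line on the lower side and Cebpd on the higher side, with the weaker Cebpd probe set at 0.58.

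Within the C/EBP family the members went in opposite directions. Cebpa reached a signal of 16094.0 in sham, above 99.3% of probe sets, and 8428.9 in AKI, above 98.4%. The ratio of sham over AKI was 1.91 and the log2 difference -0.93, and 14.0% of all genes were more negative. It was measured by 1 probe set. Cebpb, the gene of NF-IL6, gave 5958.9 in sham and 10722.9 in AKI with the probe set 1418901_at, a ratio of AKI over sham of 1.80. The probe set 1427844_a_at of Cebpb gave 1227.7 and 1771.4, a ratio of 1.44. The log2 differences of the Cebpb probe sets, 0.84 and 0.50, were both positive and lay 0.34 apart. Neither reached 2-fold, and 1734 of the 13128 genes had a larger positive difference.

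Cebpd was the factor with the most positive difference. Its probe set 1423233_at gave 677.0 in sham and 3691.0 in AKI, a ratio of AKI over sham of 5.45. The log2 difference of 2.33 was exceeded by 172 of the 13128 genes, and the signal went from above 79.1% to above 96.5% of probe sets. The weaker probe set 1456605_at gave 234.5 and 387.4, a ratio of 1.65 and a log2 difference of 0.58. The Cebpd probe sets agree in direction but lie 1.74 apart, more than the SD of 0.66 within genes of this level, and their mean difference was 1.46.

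A constant shift of a whole array cancels when the differences of 2 genes are subtracted. The difference of Cebpb minus that of Cebpa was 1.77, and that of Cebpd minus that of Cebpa was 3.26, or 2.38 with the mean of the Cebpd probe sets. Quantile normalization and lowess centring, which are not constant shifts, left them between 1.76 and 1.84 and between 3.20 and 3.31. The Cebpd value was 1.49 above that of Cebpb. These gaps concern changes between the pools. They do not say which C/EBP transcript was the more abundant, since the probe sets are not calibrated against each other. The array measures mRNA and gives nothing on the long and short proteins that are translated from the Cebpa and Cebpb transcripts.

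The promoter windows of the C/EBP genes that the table holds, chr7:35119043-35119342 for Cebpa and chr2:167688665-167688964 for Cebpb, both on the plus strand, are printed because these genes differed in direction.
Cebpa: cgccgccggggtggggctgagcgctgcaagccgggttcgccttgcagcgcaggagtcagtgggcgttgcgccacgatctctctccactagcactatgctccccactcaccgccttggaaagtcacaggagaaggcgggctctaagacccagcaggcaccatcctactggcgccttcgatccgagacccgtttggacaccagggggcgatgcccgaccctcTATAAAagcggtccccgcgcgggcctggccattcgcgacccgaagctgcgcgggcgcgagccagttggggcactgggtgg
Cebpb: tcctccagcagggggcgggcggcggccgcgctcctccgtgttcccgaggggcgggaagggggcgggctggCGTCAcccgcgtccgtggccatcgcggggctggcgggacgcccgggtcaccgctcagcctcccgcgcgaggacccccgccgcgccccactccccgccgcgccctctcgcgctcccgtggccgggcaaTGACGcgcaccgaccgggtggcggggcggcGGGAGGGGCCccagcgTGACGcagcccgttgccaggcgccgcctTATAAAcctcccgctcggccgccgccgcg
The Cebpa window holds a TATA box at -30 and no other motif searched. The Cebpb window holds the cAMP response element core at 3 places, as CGTCA at -180 and as TGACG at -53 and -7. It also holds GGGAGGGGCC, which fits the NF-kB pattern, at -23, and TATAAA at 21 bases after the annotated start. The GC content was 80.7% for the Cebpb window and 67.3% for that of Cebpa, against a median of 52.7% over all windows. Base composition bears on how often a short motif occurs by its letters alone. The C/EBP palindrome TTGCNNAA, the STAT pattern TTCNNNGAA and the AP-1 pattern TGANTCA were also searched on both strands. They are found in 10.8%, 8.30% and 7.81% of all windows and in none of the 8 windows examined for 6 of the factors. No window of Onecut2 or Cebpd was among these 8. TGACG and TGANTCA share their first letters, and no 2 matches printed here overlap.

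Whole liver holds several cell types, and in a pooled tissue sample a smaller number of cells of a type and less RNA per cell cannot be told apart. The labelled tissue was borne out by its markers, since Alb gave 124516 and Ttr 95020 in the sham pool. Of 12 measured hepatocyte markers none differed by 2-fold, with a median of -0.32 and a range of -0.79 to 0.88. C/EBP beta and delta genes are also active in myeloid cells. Of 9 neutrophil and monocyte markers matched to the array 7 passed the level filter. Of these 4 were at least 2-fold higher and none was lower, led by S100a8 (3.17) and S100a9 (2.72), and only 2 were that much higher after centring on reference genes. S100a8, S100a9 and Mmp9 passed the filter on the AKI array alone, and of the 4 markers that passed on both arrays 1 was at least 2-fold higher. The summed signal of the 9 was 2846 in sham and 7883 in AKI, none was at 0, and Cxcr2 (-0.34) and Itgam (0.16) stayed below the filter. The 12 Kupffer cell and macrophage markers went the other way, with summed signals of 17821 and 11390, a median of -0.52, and 3 at least 2-fold lower against 1 higher, Marco (1.46). After centring on hybridization controls 1 was lower. Marco passed the filter on the AKI array alone, and of the 10 macrophage markers that passed on both arrays 3 were lower and 0 higher. Bile duct cells also express ONECUT and FOXA genes. Of 7 matched cholangiocyte markers 4 passed, with Sox9 (2.58) higher and Anxa4 (-1.02) lower, while Krt19 and Krt7 lay below the filter. Liver endothelial markers (10 measured, 3 lower and 1 higher past 2-fold, median -0.29), stellate cell and fibroblast markers (10, 1 and 1, -0.10), T and B cell markers (5, 0 and 1, 0.22) and pancreas, stomach and gut markers (8, 2 and 1, -0.16) had members on both sides or near 0. Some of these passed the filter on 1 array only. On both arrays passed 9 endothelial (2 lower and 1 higher past 2-fold) and 8 stellate cell and fibroblast markers (0 and 1). The 4 T and B cell markers and 5 pancreas, stomach and gut markers that passed on both arrays all stayed within 2-fold. Of 11 measured reference genes 1 was past 2-fold, Ywhaz (1.20), and their median was 0.15. The part of these cell types in the differences of the factors was not tested. RNA integrity, as the signal ratio of the 3' over the 5' control probe set, was 0.86 in sham and 1.05 in AKI for Gapdh and 1.61 and 2.24 for beta-actin, and its part was not tested either.

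The genes around the factors were taken from lists fixed by name. In the same gene families, 21 of 23 matched genes passed the level filter. Of these 3 were at least 2-fold higher, 2 lower and 16 within 2-fold, with a median of 0.04. For this and the later lists, the shares over all genes with the authors' scaling are 10.4% at least 2-fold higher and 12.4% lower. The lower ones were Cux2 (-1.90), a cut homeobox gene known for its female bias in mouse liver, and Foxo3 (-1.14), a forkhead factor restrained by insulin signalling. Probe sets of Cux2 spanned -1.90 to 1.62 and those of Foxo3 -1.71 to 0.24. Cux2 passed the level filter on the sham array alone. Of the 18 genes of this list that passed on both arrays, 3 were at least 2-fold higher and 1 lower. The higher ones were Foxk1 (1.34), Foxj3 (1.10) and Ddit3 (1.24), the C/EBP homologous protein of endoplasmic reticulum stress. Of these, Foxk1 and Foxj3 had a probe set below 0 as well, at -0.31 and -0.52, and the probe sets of Ddit3 were at 1.24 and 2.11. The median of this list was below 0 after centring on reference genes, at -0.11, and at 0.34 after centring on hybridization controls.

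Other transcription factors of hepatocytes were mostly lower. Of 31 that passed the filter, 17 were at least 2-fold lower and 3 higher, with a median of -1.17. Cux2 is an entry of this list as well and is counted among the 17. Among the factors of this list that passed on both arrays, 13 of 26 were at least 2-fold lower and 3 higher. Without probe sets of suffix _s_at, _x_at or _a_at, 12 were lower and 2 higher, and the median was -0.68. After centring on hybridization controls 14 were lower and 3 higher, with a median of -0.88. Klf15 (-4.86), Nfic (-4.06), Nr0b2 (-3.55) and Dbp (-3.35) had the largest differences on this scale. The AKI signals of Klf15 (44.9), Nfic (26.5) and Nr0b2 (83.0) lay far below the array median, so their exact sizes and order depend on the pseudocount. Gata6 (2.86), Bcl6 (1.83) and Xbp1 (1.18) were the 3 higher ones. The probe sets of Nfic ran from -4.06 to -0.14. Hnf4a, picked after its value was seen because HNF4 alpha works together with FOXA and C/EBP proteins on many liver genes, had signals of 16869.6 and 9432.5. The 4 probe sets of Hnf4a were all lower, from -0.98 to -0.46, a range near the value of Cebpa.

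**Figure D3:**
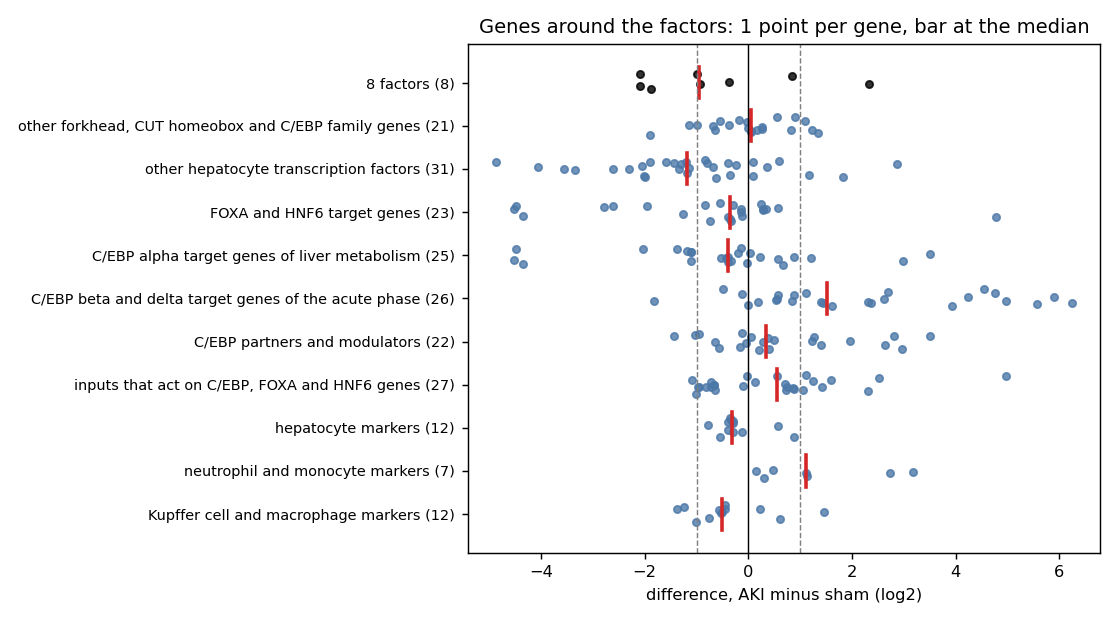
Log2 difference, AKI minus sham, of each gene past the level filter (points), with the median of the list as a red bar, for the 8 factors and 10 gene lists, with the number of genes in parentheses and dashed lines at 2-fold. The points of the other hepatocyte transcription factors lie mostly to the left, with a median of -1.17, and those of the acute phase targets mostly to the right, with a median of 1.53 (members of the group left out).

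Known targets of the factors were uneven. Of 23 measured FOXA and HNF6 targets, 7 were at least 2-fold lower, 1 was higher and 15 were within 2-fold, with a median of -0.36. Hsd3b5 (-2.78), counted among the 7, passed the level filter on the sham array alone. The 22 targets that passed on both arrays held 6 genes past 2-fold on the lower side and the same higher gene. Cyp7a1 (-4.52), the rate-limiting enzyme of bile acid synthesis, and the gluconeogenic Pck1 (-4.48) and G6pc (-4.35) were the lowest, with the probe sets of Pck1 between -4.48 and -0.48, and Igfbp1 (4.77), which encodes a secreted binding protein of insulin-like growth factors, was the only one that was higher. The C/EBP alpha targets of liver metabolism share 8 entries with that list. Of 25 measured, 9 were at least 2-fold lower, 3 were higher and 13 within 2-fold, with a median of -0.39. After centring on hybridization controls 5 were lower and 4 higher, and the median was -0.10 (-0.06 for the FOXA and HNF6 targets). Higher were Trib1 (3.50), Cidec (2.98) and Scd1 (1.20). Trib1 and Cidec passed the level filter on the AKI array alone, and the other probe set of Trib1 was at -0.34. Of the 23 C/EBP alpha targets that passed on both arrays, 1 was at least 2-fold higher and 9 lower. Among the acute phase targets of C/EBP beta and delta, leaving out Cebpb and Cebpd themselves, 26 genes were measured. Of these, 16 were at least 2-fold higher, 9 were within 2-fold and 1, Crp (-1.81), was lower, and the median was 1.53. Saa2 (6.24), Lcn2 (5.89), Cxcl2 (5.57) and Il1r1 (4.97) led, and the other probe set of Il1r1 was at -1.06. Many of these genes also answer to STAT3 and NF-kB, so the list does not belong to C/EBP proteins alone. Of its genes 3, Cxcl2 and Il1r1 among them, passed the filter on the AKI array alone. Of the 22 that passed on both arrays, 13 were at least 2-fold higher and 1 lower.

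Genes whose products bind or modify C/EBP proteins were measured for 22 entries, of which 8 were at least 2-fold higher, 2 lower and 12 within 2-fold, with a median of 0.33. The largest differences were those of Trib1, a pseudokinase known to direct C/EBP alpha to the ubiquitin ligase COP1, Atf3 (2.97), Fos (2.82) and Jun (2.63). Trib1, Atf3 and Fos passed the level filter on the AKI array alone. Of the 18 genes of this list that passed on both arrays, 5 were at least 2-fold higher and 1 lower. The signals of Trib1 were 128.3 in sham and 2199.5 in AKI, but its other probe set was at -0.34. Lower were Atf5 (-1.43) and Cdk4 (-1.04), of which 1 stayed past 2-fold after centring on hybridization controls. Of 27 measured genes for cytokine, hormone and insulin signals that act on the factors' genes, 8 were at least 2-fold higher, 2 lower and 17 within 2-fold, with a median of 0.55. These counts turned on the scaling, with 13 higher and 0 lower after centring on hybridization controls and 6 higher and 4 lower after centring on reference genes. Il1r1, Stat3 (2.53), the cytokine gene Il6 (2.30) and Tgfbr2 (1.60) had the largest differences, although the probe sets of Stat3 spanned -0.08 to 2.53. The glucagon receptor gene Gcgr (-1.09) and Stat5a (-1.01), which takes part in growth hormone signalling, were the lower ones, with the other probe set of Stat5a at 0.17. Of the 27 genes 3, Il1r1 and Il6 among them, passed the level filter on the AKI array alone, and 2 on the sham array alone. Among the 22 that passed on both arrays, 5 were at least 2-fold higher and 1 lower.

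The direction of the 8 factors was the same under every scaling that was tried, whereas the counts past 2-fold were not. Under centring on 18 hybridization control probe sets, which moves the median of all genes up by 0.30, Foxa1 was at -0.07 and Cebpb at 1.14, so that 2 factors passed 2-fold on the higher side. Under centring on 11 reference genes, which moves it down by 0.15, Foxa2 (-1.14) and Cebpa (-1.08) passed 2-fold too, which made 5 lower factors. The share of all genes at least 2-fold lower was 15.6% under that centring and the share at least 2-fold higher 16.8% under the first. Of all genes past 2-fold, 45.6% were higher with the authors' scaling, 67.5% with the first centring and 34.6% with the second.

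**Figure D4:**
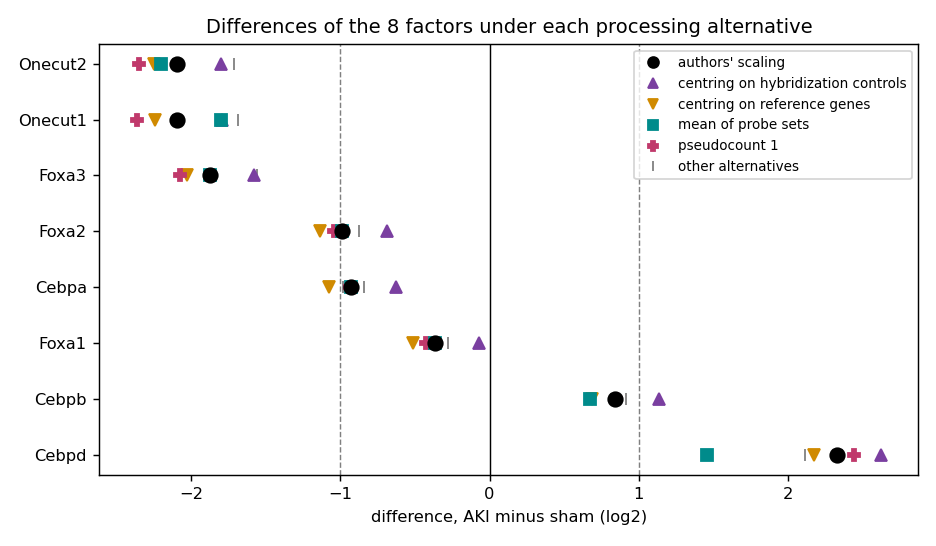
Log2 difference of each of the 8 factors with the authors' scaling (black circles) and under each processing alternative (other markers), with dashed lines at 2-fold. Every marker of Onecut2, Onecut1, Foxa3, Foxa2, Cebpa and Foxa1 lies below 0 and every marker of Cebpb and Cebpd above 0, with Foxa1 closest to 0 at -0.07.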

How the data were processed

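Livers of female wild-type mice were pooled by group (3 mice and 100 mg of frozen tissue each), and per the labels' protocols Trizol was used to extract total RNA, of which 8 ug were made into biotin-labelled cRNA for Affymetrix arrays. The authors deposited 1 linear signal intensity for each probe set and array. The software and the genome build are not given in the sources used here. The trimmed mean (2% left out at each end) was 500.00 on both arrays, so the authors had scaled them to a common target, which removes any difference in total mRNA. Depth does not apply to arrays, and their number (1 per group) limits the precision.

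Probe sets were named through the platform annotation, 34945 by 1 symbol, 932 by several and 9160 by none, besides 64 controls. The symbols were compared by Entrez number with RefSeq (GRCm38.p6). This matched 34741 probe sets and altered 0 symbols. Log2 differences, the level filter and 2-fold counts were computed in Python 3.11.15 (numpy 2.4.6, pandas 2.3.3, statsmodels 0.14.6, matplotlib 3.10.9) and tested on simulated data. The factors and gene lists were chosen with earlier results of these data known. List genes were named by a rule: the 4 largest absolute differences past the filter, more where a count was 5 or fewer, and any marker or reference gene. Promoter sequences are RefSeq's, and windows of 6 of the 8 factors were described. Cebpd had no window in the source, and Onecut2 was left out of the search of the factors' windows. Alternatives changed scaling (median, quantile, lowess with fraction 0.3, hybridization controls, reference genes), pseudocount (1, or the table median of 228.7), probe set choice, and the filter (none, or the 75th percentile).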

Additional observations from a re-analysis of the deposited data

How the results depend on the processing

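The 8 factors kept their sign under all 11 alternatives (10 for Foxa3, which has no value without probe sets of suffix _s_at, _x_at or _a_at). Over the alternatives the differences ran from -2.35 to -1.71 for Onecut2, -2.37 to -1.69 for Onecut1, -2.08 to -1.56 for Foxa3, -1.14 to -0.69 for Foxa2, -1.08 to -0.63 for Cebpa, -0.52 to -0.07 for Foxa1, 0.67 to 1.14 for Cebpb and 1.46 to 2.63 for Cebpd. With the mean of probe sets, Cebpd was at 1.46 and Cebpd minus Cebpa at 2.38, because the weaker Cebpd probe set enters. With centring on hybridization controls 2 factors were at least 2-fold higher, and with centring on reference genes 5 were at least 2-fold lower. The count of lower factors was 4 with median centring and with a pseudocount of 1. It was 2 without probe sets of suffix _s_at, _x_at or _a_at, where Foxa3 has no value. The counts of all genes past 2-fold were 1370 higher and 1634 lower, 2211 and 1066 with centring on hybridization controls, and 841 and 1063 with the table median as pseudocount, which shrinks weak signals. For the gene lists 481 of 522 values stayed near their main value and 41 moved. A median was called near when it moved by less than 0.66, and a count when it changed by no more than a set factor. Centring on hybridization controls, the largest shift of a whole array, moved the median of all genes by 0.30. Such a shift could therefore not take a list median out of this range. A change of sign was looked for only in medians past 2-fold, and 0 changed. No replicate could be left out, and no paired analysis was possible because each group is 1 pooled array. At the stricter filter Foxa1 drops out and 7 factors remain. Signals near the array median, such as those of Onecut1 and Onecut2 in the AKI pool, come without a detection call in the values used here.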

Other observations

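Gata6 and Sox9 were picked after their values were seen, since each had 3 probe sets that were all more than 2-fold higher in the AKI pool. Gata6, a zinc finger factor that acts with FOXA proteins in early liver development, had signals of 678.5 in sham and 5375.0 in AKI (2.86), and its 3 probe sets ran from 1.15 to 2.86. Sox9, a factor of bile duct and progenitor cells, had signals of 229.2 and 1729.9 (2.58), and its 3 probe sets ran from 1.20 to 3.56. Gata4, the relative of Gata6, was at 0.35, and other developmental regulators of the liver on the lists went other ways, with Hhex at -0.68, Nr5a2 at -1.34 and Prox1 at 0.09. Cop1, the ubiquitin ligase gene that works with Trib1, was at -0.95 with signals of 2378.7 and 1199.3. Each of these values comes from 1 array per group and has no replicate.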
